A study of Mus musculus with 8 samples.

Results

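The genes described here encode the factors that start and extend protein chains on the cytosolic ribosome. They are the protein-coding genes of the deposited table whose symbols begin with Eif or Eef, without the 4 kinases of eIF2 (Eif2ak1 to Eif2ak4), and they number 84 of 53700 genes. Of the 84, 20 had 0 counts in all 8 libraries: 16 numbered Eif1ad copies, Eef1a2, Eif4ebp3, Eif4e1b and the Y-linked Eif2s3y. Of the other 64, 61 had a count in every library, and 63 passed the expression filter and entered the tests. Eef1akmt3 had 11 counts in 1 library and was not tested.

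Polyadenylated RNA was amplified by Smart-Seq2 from 8 pools of mouse marrow cells, each of 5 mice, sorted 13 weeks after transplantation of CD45.2 donor marrow into irradiated wild-type CD45.1 recipients. Haematopoietic stem cells (HSC) were CD48- CD150+ and multipotent progenitors (MPP) CD48+ CD150-, both within the lineage-negative, Sca-1+ and Kit+ (LSK) gate. Each cell type had 1 library per donor genotype: WT (Nfat5 +/+ with Vav-Cre), N5 (Nfat5 fl/fl with Vav-Cre, which acts in blood-forming cells), IFNAR (deficient in Ifnar1, which encodes part of the receptor for type I interferons) and DKO (both defects). Nfat5 encodes a transcription factor known for the response to osmotic stress. All donor cells had matured in wild-type hosts, so stromal and residual host cells carried neither defect.

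Initiation begins when eIF2, bound to GTP and the initiator tRNA, joins the small ribosomal subunit with eIF1, eIF1A, eIF3 and eIF5. The eIF4F complex brings this assembly to the capped mRNA: eIF4E binds the cap, eIF4G is the scaffold and eIF4A is the helicase that unwinds the leader. Elongation then needs only a few abundant proteins, eEF1A to deliver aminoacyl-tRNA, eEF1B to recharge it, and eEF2 to move the ribosome. Stem cells of the marrow are known for a low rate of protein synthesis compared with progenitors, held down in part by 4E-binding proteins that block eIF4E.

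The 2 eIF4A helicase paralogs, Eif4a1 and Eif4a2, had levels that did not overlap between HSC and MPP, in opposite directions, so their sequences are shown first, to show how far reads can tell them apart. Their coding sequences in GENCODE M21 (1221 and 1227 bases) were 78.0% identical over 1221 aligned bases. The last 90 coding bases differed at 16 positions, which are in capitals.

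Eif4a1: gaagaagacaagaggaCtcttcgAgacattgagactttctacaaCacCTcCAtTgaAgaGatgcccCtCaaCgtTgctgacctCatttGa

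Eif4a2: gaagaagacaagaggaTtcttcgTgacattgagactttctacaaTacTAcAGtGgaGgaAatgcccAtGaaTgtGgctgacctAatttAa

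No 50-base stretch was shared between the 2 transcripts, so a read of that length has no perfect match to both. The processed pseudogene Eif4a-ps4 is different: 95.7% of its 50-base stretches also occur in Eif4a1, and none in Eif4a2. The counts assigned to Eif4a-ps4 came to 7.04% to 10.1% of those assigned to Eif4a1. Levels of Eif4a1 therefore depend on how reads were divided between the gene and this pseudogene.

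The promoters of the pair were read from RefSeq (GRCm38.p6), from 200 bases before the transcription start to 20 after it, 5′ to 3′ on the gene's strand. They are printed because they carry different motifs among the 2 that were searched. The window of Eif4a1 (chr11:69672404-69672623, minus strand) holds CACGTG, the E-box bound by Myc and its relatives, 189 bases before the start. The window of Eif4a2 (chr16:23107268-23107487, plus strand) holds TTCCGG, 163 bases before the start. On the other strand it reads CCGGAA, which contains GGAA, the core bound by ETS factors. That core alone also occurs in the Eif4a1 window, as TTCC on the printed strand. The windows thus differ in the exact motif searched, not in the presence of the core. The motif searched is in capitals in each.

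Eif4a1: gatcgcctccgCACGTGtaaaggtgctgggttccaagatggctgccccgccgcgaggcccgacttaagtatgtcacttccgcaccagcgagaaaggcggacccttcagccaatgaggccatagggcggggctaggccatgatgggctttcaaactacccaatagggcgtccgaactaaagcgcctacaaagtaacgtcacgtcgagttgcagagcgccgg

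Eif4a2: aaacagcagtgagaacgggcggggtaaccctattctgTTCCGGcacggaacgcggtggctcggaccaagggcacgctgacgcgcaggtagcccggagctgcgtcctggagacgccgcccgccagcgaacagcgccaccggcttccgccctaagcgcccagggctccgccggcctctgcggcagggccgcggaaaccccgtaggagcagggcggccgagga

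Both motifs were searched on both strands around the start of every gene with a RefSeq entry. The stretch searched was longer than the printed windows and reached further upstream. CACGTG occurred in 8.09% of 27025 promoters and in 14 of the 51 factor genes with an entry (27.5%), among them Eif4a1, Eif4e, Eif4g1, Eif4h, Eif5a and Eef2. CCGGAA occurred in 16.7% of promoters and in 23 of the 51 (45.1%), among them Eif4a2, Eif4e2, Eif4g3, Eif2b1, Eif2b2 and Eif2b4. Eif1b, Eif3f, Eif5a and Eif5a2 held both motifs. Each motif occurred both in genes fitted higher in HSC and in genes fitted lower. Examples are Eif1b and Eif4a1 for CACGTG, and Eif4a2 and Eif1ad for CCGGAA, in that order. The 27025 promoters include those of genes that did not pass the expression filter, whereas 49 of the 51 factor genes passed it. Shares over the tested genes alone were not counted, so whether the factors differ from other expressed genes was not tested. A match describes the letters only and is not evidence of binding.

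Total counts ran from 28871693 to 47205950 per library, and 3 counts, used as the floor of detection, corresponded to 0.0633 to 0.105 CPM (counts scaled to the library total). Levels are CPM after TMM scaling, and per-library values are given in the order WT, N5, IFNAR, DKO. The markers of the sorted populations followed the labels: summed HSC markers ran from 482 to 603 CPM in HSC and 166 to 230 in MPP, and summed MPP markers from 258 to 552 in HSC and 6812 to 11750 in MPP. All 15 genes of a proliferation list were fitted lower in HSC (median log2 fold change -0.94), with sums of 3417 to 4125 CPM in HSC and 6240 to 7397 in MPP. Other lineage lists, of 5 genes each, also had counts: summed megakaryocyte genes ran from 219 to 441 CPM in HSC and 45.6 to 164 in MPP, erythroid genes from 190.5 to 568 and 116 to 227, neutrophil genes from 472 to 594 and 127 to 666, and B cell genes from 28.0 to 90.9 and 51.3 to 83.8. The T cell genes Cd3e, Cd3d, Cd3g and Trac were at 0 in every library, and Klrb1c of the same list was at 26.1 CPM in the HSC library labelled WT. Of the stromal and endothelial list, Lepr, Cdh5 and Col1a1 were at 0. Pecam1 of the same list, which haematopoietic cells also express, was at 56.9 ± 34.7 CPM in HSC and 147 ± 34.8 CPM in MPP without overlap. The summed list of 5 monocyte and macrophage genes was at most 0.0290 CPM in HSC against 52.6 to 136 in MPP. The part of these cell type and proliferation genes in the results below was not tested. Transcripts of Nfat5 and Ifnar1 did not follow the genotype labels: Nfat5 was at 22.7 and 35.5 CPM in the HSC libraries labelled N5 and DKO and 3.12 in that labelled IFNAR, and Ifnar1 was at 113 CPM in the HSC library labelled IFNAR, 125 in the MPP library labelled DKO and 37.2 in the MPP library labelled WT. Whether all libraries carry the genotype on their label was not tested. Genotypes are accordingly named as the library labels throughout.

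Together the factors took 2.80% to 3.06% of each library's counts, and the range in HSC overlapped that in MPP. Summed over all 84 genes the level was 29138 ± 1468 in HSC and 30046 ± 1226 CPM in MPP (SD, n = 4 each). In these bulk pools, fewer cells of a type and less RNA per cell cannot be told apart. No factor passed the test of HSC against MPP fitted across all genes (edgeR quasi-likelihood, 4 genotypes as a block, Benjamini-Hochberg adjusted p, threshold 0.05): 0 of 63 were called, with a smallest adjusted p of 0.244. The background was also low, at 2 of 12132 genes, or 0.0165%. At an unadjusted p under 0.05, 1 factor was higher in HSC and 6 were lower, against 10.1% of all genes, of which 4.45% were higher and 5.65% lower. Other tools gave other counts: DESeq2 called 6 of the 63 (Eif4a1, Eif4a2, Eif4g2, Eif2s2, Eif3b and Eif1ad) and 1880 of 12132 genes, and limma-voom called 1 (Eif4g2) and 156 genes.

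The fitted log2 fold change was above 0 in HSC for 25 of the 63 factors and below 0 for 38, with a median of -0.06. Over all genes tested the median was -0.10, with 44.2% above 0. The 4 HSC libraries lay wholly above the 4 MPP libraries for 1 factor, Eif4a2, where 4.73% of all genes did so. They lay wholly below for 4 factors, Eif4a1, Eif4g2, Eif2s2 and Eif3b, where 5.65% of all genes did so. Those 5 are 7.94% of the factors tested, against 10.4% of all genes. Within genotypes, HSC was above MPP in 4 of 4 pairs for 3 factors (Eif4a2, Eif3c and Eif1; background 9.81%) and below in 4 of 4 for 9 (background 12.0%). P-values here measure the spread between these libraries only, since no cell type and genotype was sampled more than once.

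**Figure D1:**
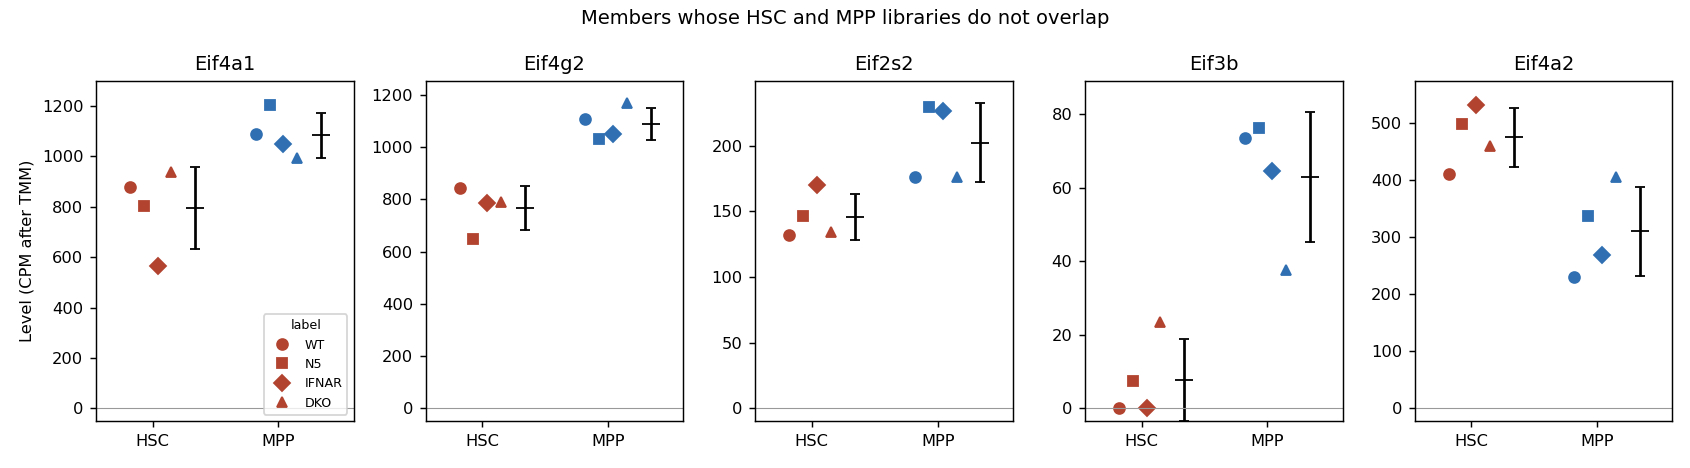
Level in CPM after TMM scaling (y axis, 0 marked by a line, a separate scale in each panel) of the 5 factors whose HSC (red) and MPP (blue) libraries did not overlap, with 1 symbol per library by genotype label and bars for the mean ± SD of 4 libraries. Eif4a2 is the only panel in which the HSC points lie above the MPP points, and the HSC points of Eif3b run from 0 to 23.6 CPM, so that its lower SD bar passes below 0.

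**Figure D2:**
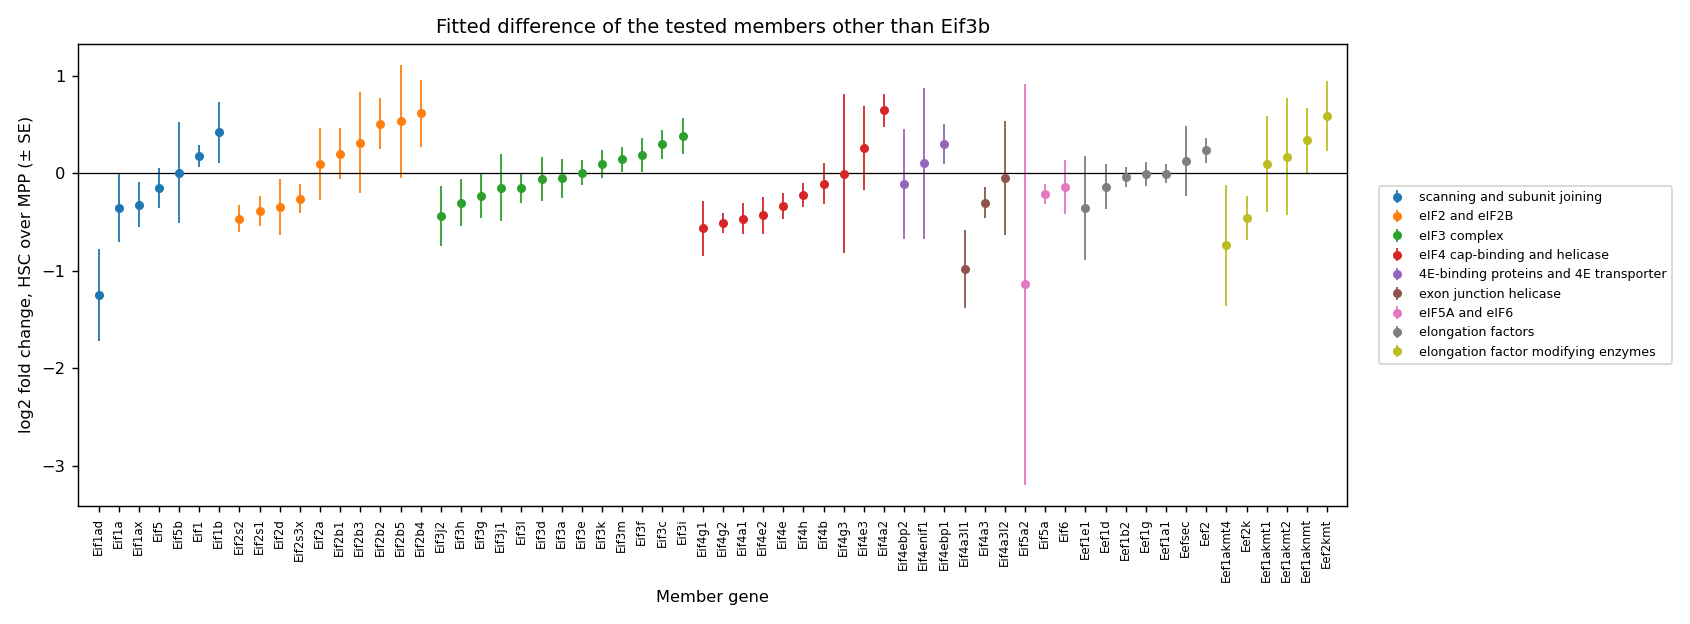
Fitted log2 fold change of HSC over MPP with its standard error (y axis) for 62 factors tested, grouped by role and ordered within each group; Eif3b, fitted at -6.35, is left out to keep the scale. Most eIF4 genes lie below 0 with Eif4a2 above it, the 5 Eif2b genes lie above 0, and the abundant elongation factors lie close to 0.

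The eIF4 class holds the cap-binding, scaffold and helicase genes and their relatives, of which Eif4g2 and Eif4e2 act outside canonical cap-dependent initiation. Of its 10 tested genes 3 had no overlap between HSC and MPP, where 10.4% of all genes and 17.1% of genes at 100 CPM or more had none. Summed over its 11 genes, the level was 3732, 3489, 3411 and 3821 CPM in HSC and 4231, 4580.4, 4111 and 4340.4 CPM in MPP. The HSC libraries thus lay between 3411 and 3821 CPM and the MPP libraries between 4111 and 4580, with no overlap and HSC lower in 4 of 4 genotypes. The means were 3613 ± 195 in HSC and 4316 ± 199.9 CPM in MPP (SD, n = 4 each), a ratio of 0.837. Most of this gap came from the most abundant genes of the class, Eif4a1 (795 in HSC, 1083 in MPP) and Eif4g2 (767 in HSC, 1090 in MPP). The sum therefore largely restates those genes. Ratios of summed levels were 0.816 for the exon junction helicases and 0.865 for eIF5A and eIF6, where HSC and MPP libraries overlapped. Of 10 eIF4 genes tested, 8 were fitted lower in HSC and 2 higher, with a median log2 fold change of -0.28 against -0.10 over all genes. The proliferation genes given above were lower in the same libraries, and their part in this difference was not tested.

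Eif4a1 (ENSMUSG00000059796.17), the main eIF4A helicase of dividing cells, had 877, 801, 566 and 938 in HSC and 1087, 1204, 1048 and 991 CPM in MPP. Every HSC library was below every MPP library, and the HSC library labelled IFNAR was the lowest of the 8. The means were 795 ± 163 in HSC and 1083 ± 90.1 CPM in MPP (SD, n = 4; log2 fold change -0.47, SE 0.16, edgeR adjusted p = 0.416). Eif4a2 (ENSMUSG00000022884.17), the second eIF4A helicase, showed the opposite order, with 411, 499, 531 and 460.1 in HSC and 229.6, 338, 268 and 405 CPM in MPP. Here every HSC library was above every MPP library, but the lowest HSC library (411 CPM, WT) and the highest MPP library (405 CPM, DKO) were close. Its mean was 1.53 times higher in HSC, with 475 ± 51.9 in HSC and 310.2 ± 77.4 CPM in MPP (log2 fold change 0.64, SE 0.17, edgeR adjusted p = 0.324). With DESeq2 the adjusted p was 0.0225 for Eif4a1 and 0.00139 for Eif4a2.

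Because the paralogs were measured in the same library, their ratio does not depend on library size. Eif4a2 supplied 31.9, 38.4, 48.4 and 32.9% in HSC and 17.4, 21.9, 20.4 and 29.0% in MPP of the Eif4a1 and Eif4a2 counts. The groups did not overlap: the lowest HSC share was 31.9% and the highest MPP share 29.0%. On average the share was 37.9% ± 7.56 in HSC and 22.2% ± 4.91 in MPP (SD, n = 4 each), a difference of 15.7 percentage points. The exact permutation test over samples gave p = 0.0286, two-sided and the smallest that 4 against 4 libraries allow, and 0.2 after Benjamini-Hochberg adjustment over 7 pairs. Exchanging labels only within genotypes gave an exact permutation p of 0.125, the smallest that 4 genotypes allow, with the share higher in HSC in 4 of 4. Every HSC library lay below every MPP library for Eif4a1 and above every one for Eif4a2, so the shares had to separate. Both permutation p-values were thereby fixed by the levels given above and add no further support. With the pseudogene Eif4a-ps4 counted as Eif4a1 the shares were 36.01% and 20.8%, still without overlap.

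The other 6 paralog pairs had overlapping shares in HSC and MPP, each with an adjusted p of 0.943 (exact permutation test, two-sided). Eif4e2, a cap-binding protein that does not support canonical initiation, took 23.7, 20.6, 47.8 and 28.7% in HSC and 22.6, 25.1, 40.9 and 36.2% in MPP of the Eif4e and Eif4e2 counts. The 2 IFNAR libraries had the highest share in their cell type. Eif4g3, an alternative eIF4G scaffold, took 15.2, 19.4, 25.2 and 31.0% in HSC and 36.3, 27.2, 5.56 and 12.1% in MPP of the Eif4g1 and Eif4g3 counts, with the WT and N5 libraries low in HSC and high in MPP. Mean shares were 20.1% ± 6.28 in HSC and 17.0% ± 0.542 in MPP for Eif1b of Eif1 and Eif1b, and 46.2% ± 11.8 in HSC and 45.4% ± 6.28 in MPP for Eif1ax of Eif1a and Eif1ax. They were 24.4% ± 12.9 in HSC and 27.1% ± 7.72 in MPP for Eif4ebp2 of Eif4ebp1 and Eif4ebp2, and 0.955% ± 0.671 in HSC and 1.08% ± 0.341 in MPP for Eif5a2 of Eif5a and Eif5a2. Eef1a2 had no counts, so it took 0% of the Eef1a pair in every library and was not tested. A p above the threshold does not show that these shares were alike, and the differences of Eif4e2 ranged from -6.90 to 2.20 points when each library was left out in turn.

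**Figure D3:**
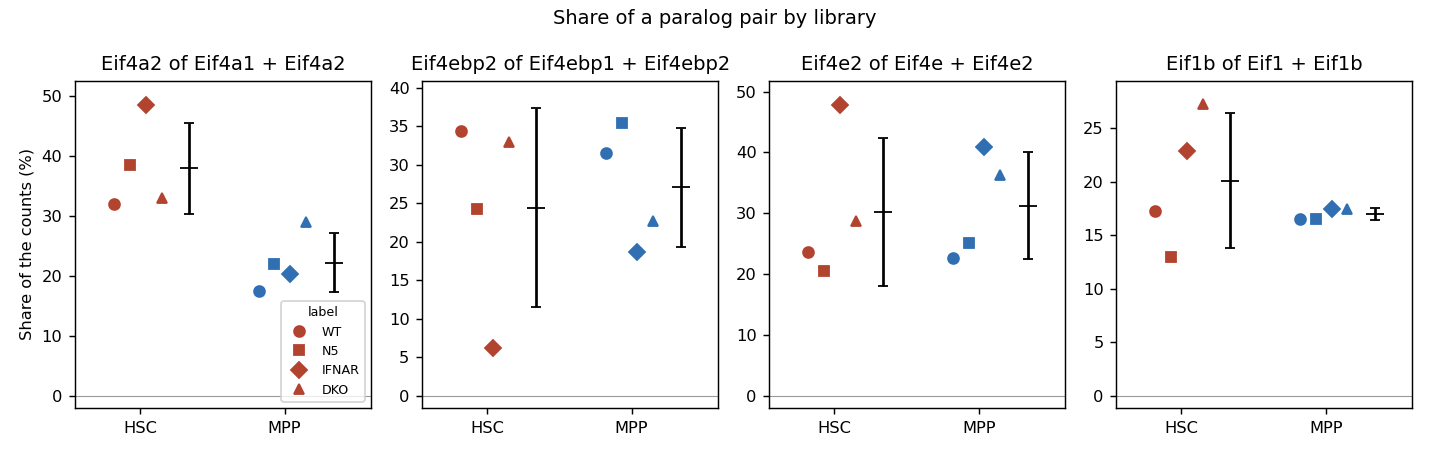
Share (percent, y axis, 0 marked by a line) that the named paralog took of the counts of its pair, for 4 of the pairs, 1 point per library by genotype label, for HSC (red) and MPP (blue), with bars for the mean ± SD of 4 libraries. Of these 4, only the Eif4a2 share separates the cell types, at 31.9% to 48.4% in HSC and 17.4% to 29.0% in MPP.

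Eif4g2 (ENSMUSG00000005610.18), also called DAP5, is an eIF4G relative that lacks the eIF4E binding site and serves cap-independent initiation. It had 844, 649, 788 and 789 in HSC and 1109, 1033, 1051 and 1168 CPM in MPP. The highest HSC library (844 CPM, WT) lay well below the lowest MPP library (1033 CPM, N5), so the groups did not overlap. Its means were 767 ± 83.4 in HSC and 1090.2 ± 61.0 CPM in MPP (SD, n = 4), and its edgeR p was the smallest of the 63 factors (log2 fold change -0.51, SE 0.10, edgeR adjusted p = 0.244, unadjusted p = 0.00317). The adjusted p was 0.0478 with limma-voom and 1.13e-06 with DESeq2.

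Eif4e, the cap-binding protein itself, had 238, 289.6, 230.3 and 231 in HSC and 355, 341, 298 and 258 CPM in MPP. It was lower in HSC in 4 of 4 genotypes, but the HSC library labelled N5 was above the MPP library labelled DKO, so the groups overlapped (log2 fold change -0.34, SE 0.13, edgeR adjusted p = 0.485). Eif4e2 had 73.9, 75.0, 211 and 92.8 in HSC and 104, 114, 207 and 147 CPM in MPP. The libraries labelled IFNAR were the highest in both cell types, and the groups overlapped (log2 fold change -0.43, SE 0.19, edgeR adjusted p = 0.549). Eif4g1, the main scaffold, had 103, 254, 93.0 and 121 in HSC and 173, 194, 197 and 213 CPM in MPP, with the HSC library labelled N5 above all 4 MPP libraries and the other 3 below them (log2 fold change -0.57, SE 0.28, edgeR adjusted p = 0.614). Eif4g3 had 18.5, 61.1, 31.3 and 54.6 in HSC and 98.5, 72.3, 11.6 and 29.3 CPM in MPP and spread widely within both cell types (log2 fold change -0.01, SE 0.81, edgeR adjusted p = 1). The remaining 3 genes, Eif4h, Eif4b and Eif4e3, were fitted between -0.22 and 0.26, and the groups overlapped for each.

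The 4E-binding proteins, which hold eIF4E off the cap complex when mTORC1 is inactive, did not separate HSC from MPP. Their class, together with the eIF4E transporter, summed to 181 ± 37.9 in HSC and 157 ± 27.3 CPM in MPP. Eif4ebp1, the more abundant, had 121, 100.2, 139 and 84.2 in HSC and 106, 71.9, 95.0 and 86.8 CPM in MPP and was higher in HSC in 3 of 4 genotypes (log2 fold change 0.30, SE 0.21, edgeR adjusted p = 0.756). Eif4ebp2 had 63.4, 32.0, 9.27 and 41.4 in HSC and 48.9, 39.4, 21.8 and 25.6 CPM in MPP, with the IFNAR library lowest in both cell types (log2 fold change -0.11, SE 0.56, edgeR adjusted p = 0.985). Eif4enif1, which carries eIF4E into the nucleus, had 44.9, 14.8, 44.8 and 30.3 in HSC and 31.5, 30.1, 10.7 and 60.8 CPM in MPP, overlapping throughout (log2 fold change 0.10, SE 0.77, edgeR adjusted p = 0.991). These are transcript levels and say nothing of the phosphorylation that controls the binding proteins.

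**Figure D4:**
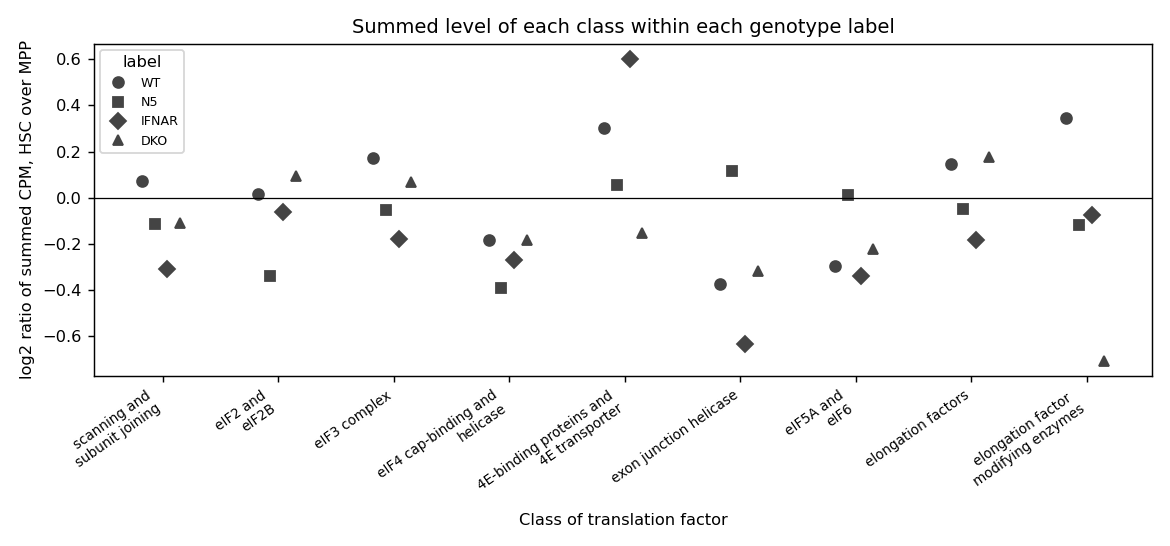
Ratio of the summed CPM of each class of factors, HSC over MPP, on a log2 scale (y axis) within each genotype (1 symbol per genotype label). The eIF4 class lies below 0 in 4 of 4 genotypes, while the elongation factors and the eIF3 complex lie on both sides of 0.

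The eIF3 complex, the scaffold that holds the small subunit in the initiation assembly, had overlapping summed levels in both cell types, with 3656 ± 257 in HSC and 3648 ± 203 CPM in MPP (SD, n = 4 each). Of its 14 genes, 6 were fitted higher in HSC and 8 lower (median -0.06). The exception was Eif3b (ENSMUSG00000056076.14), which encodes a core subunit. It had 0.0580, 7.47, 0 and 23.6 in HSC and 73.6, 76.3, 64.5 and 37.7 CPM in MPP, where the HSC value for WT rests on 2 counts and that for IFNAR on 0, which allows up to 0.0766 CPM. Every HSC library was below every MPP library, the HSC libraries ran from none to 23.6 CPM, and the MPP library labelled DKO was the lowest of its group. The means were 7.78 ± 11.1 in HSC and 63.0 ± 17.6 CPM in MPP, 8.10 times higher in MPP, but the test did not call it (log2 fold change -6.35, SE 3.18, edgeR adjusted p = 0.616). The fitted value also depends on the prior count and moved with the settings: it was -2.86 with the bias-adjusted quasi-likelihood method, and between -9.16 and -3.83 with 1 library left out.

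Levels per kilobase of transcript allow the subunits to be compared with each other. The 11 subunits other than Eif3b and the loosely bound eIF3j (Eif3j1 and Eif3j2) lay between 64.3 and 289.6 CPM per kb in HSC and between 66.4 and 261 in MPP. Eif3b lay far below that range, at 2.64 ± 3.77 CPM per kb in HSC and 21.4 ± 5.98 in MPP. Eif3b was thus the least abundant core subunit in both cell types, and lower again in HSC. Whether all reads of Eif3b were assigned to it was not tested.

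**Figure D5:**
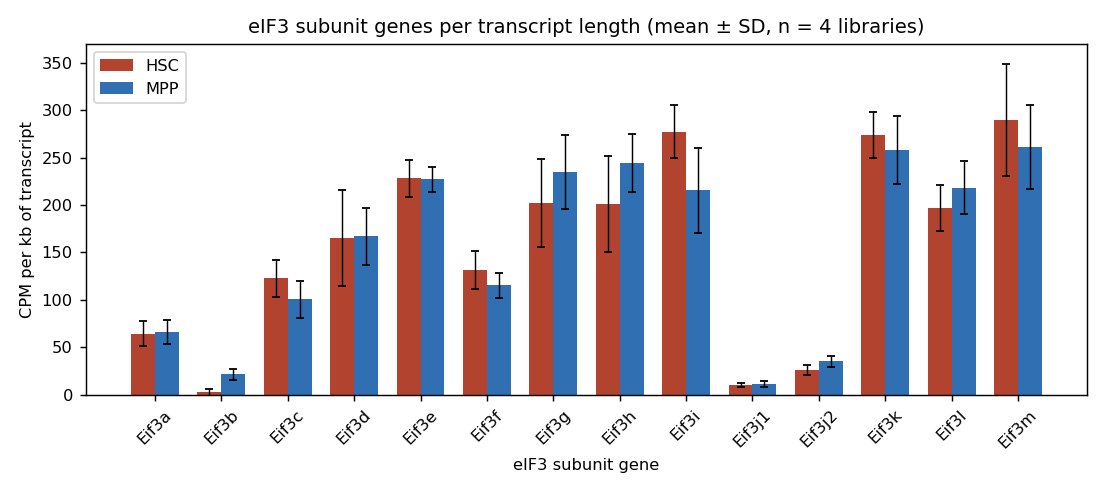
Mean level of each eIF3 subunit gene per kilobase of its longest protein-coding transcript (CPM per kb, y axis, from 0) in HSC (red) and MPP (blue), with SD over 4 libraries. Eif3b, at 2.64 and 21.4 CPM per kb, is far below the 11 subunits other than Eif3j1 and Eif3j2, which lie between 64.3 and 289.6 in HSC and between 66.4 and 261 in MPP.

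Apart from Eif3b, the largest differences in this class were those of Eif3j2 and Eif3i. Eif3j2, an eIF3j gene, had 75.0, 49.4, 71.3 and 52.0 in HSC and 79.0, 97.3, 65.5 and 92.4 CPM in MPP (log2 fold change -0.44, SE 0.31, edgeR adjusted p = 0.758). Eif3i, a core subunit that contacts Eif3b, had 287, 349, 286 and 325 in HSC and 234, 250.1, 303 and 181 CPM in MPP; the groups overlapped through the MPP library labelled IFNAR (log2 fold change 0.38, SE 0.18, edgeR adjusted p = 0.592). Eif3c, a scaffold subunit, was higher in HSC in 4 of 4 genotypes, with 415 ± 66.9 in HSC and 339.8 ± 67.2 CPM in MPP and overlapping groups (log2 fold change 0.29, SE 0.15, edgeR adjusted p = 0.610).

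The eIF2 genes and those of its exchange factor eIF2B had fitted differences in opposite directions. eIF2 carries the initiator tRNA, and eIF2B reloads it with GTP and is the step that the integrated stress response blocks. Eif2s2, the beta subunit (ENSMUSG00000074656.13), had 132, 146, 169.9 and 135 in HSC and 176, 229.6, 226 and 176 CPM in MPP. All 4 HSC libraries were below all 4 MPP libraries, although the highest HSC library (170 CPM, IFNAR) was near the lowest MPP library (176 CPM, DKO). Its means were 146 ± 17.3 in HSC and 202 ± 30.01 CPM in MPP (log2 fold change -0.47, SE 0.14, edgeR adjusted p = 0.366), with a DESeq2 adjusted p of 0.00694. Eif2s1, the alpha subunit that the stress kinases phosphorylate, was lower in HSC in 4 of 4 genotypes at 208 ± 21.5 in HSC and 276 ± 57.3 CPM in MPP (log2 fold change -0.39, SE 0.15, edgeR adjusted p = 0.488), and Eif2s3x, the gamma subunit, in 3 of 4 at 280.3 ± 70.1 in HSC and 335 ± 67.5 CPM in MPP (log2 fold change -0.26, SE 0.15, edgeR adjusted p = 0.669).

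All 5 eIF2B genes were fitted higher in HSC, between 0.20 and 0.61, and none was called or free of overlap. With 1 library left out the fitted value ranged from 0.03 to 1.10 for Eif2b5, from 0.44 to 0.90 for Eif2b4 and from 0.37 to 0.75 for Eif2b2. Eif2b1 (log2 fold change 0.20, SE 0.26) was higher in HSC in 2 of 4 genotypes, and Eif2b3 (0.31, SE 0.52) in 3 of 4. These last genes were not refitted for this contrast, so whether their direction holds was not tested. Eif2b4 had 91.3, 90.8, 113 and 43.4 in HSC and 44.9, 41.7, 75.8 and 52.5 CPM in MPP (log2 fold change 0.61, SE 0.34, edgeR adjusted p = 0.664), with the HSC library labelled DKO at the level of the MPP libraries. Eif2b5, the catalytic subunit, had 37.1, 95.8, 126 and 142 in HSC and 91.4, 58.2, 82.1 and 35.9 CPM in MPP (log2 fold change 0.53, SE 0.58, edgeR adjusted p = 0.882), with HSC WT as low as MPP DKO. Eif2b2 had 98.9, 90.8, 90.01 and 193 in HSC and 117, 55.0, 57.8 and 104 CPM in MPP (log2 fold change 0.51, SE 0.26, edgeR adjusted p = 0.636), where the HSC library labelled DKO stood far above the other 3 HSC libraries. The summed class, which pools the eIF2 and eIF2B genes and also holds Eif2a and Eif2d, hardly differed, at 1308 ± 76.7 in HSC and 1376 ± 104 CPM in MPP.

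Among the scanning and subunit-joining factors, no gene separated the groups. Eif1ad, a gene related to eIF1A, had 40.8, 140.4, 26.3 and 57.1 in HSC and 114, 141, 161 and 106 CPM in MPP. It was lower in HSC in 4 of 4 genotypes, yet the HSC library labelled N5 reached the MPP level and the other 3 lay well below it (log2 fold change -1.25, SE 0.47, edgeR adjusted p = 0.480). DESeq2 gave an adjusted p of 0.0358. Eif1, which enforces start codon choice, had 347, 340.2, 374 and 385 in HSC and 314, 302, 363 and 305 CPM in MPP, with HSC higher in 4 of 4 genotypes by a small margin (log2 fold change 0.17, SE 0.11, edgeR adjusted p = 0.727). Its paralog Eif1b had 72.3, 50.9, 111 and 145 in HSC and 62.3, 59.9, 76.9 and 64.7 CPM in MPP (log2 fold change 0.42, SE 0.31, edgeR adjusted p = 0.770), with 2 HSC libraries, IFNAR and DKO, above the rest. The groups of the 2 eIF1A genes overlapped in part: Eif1a had 186, 86.4, 155 and 139 in HSC and 129, 234, 161 and 197 CPM in MPP (log2 fold change -0.36, SE 0.35, edgeR adjusted p = 0.852). Eif1ax had 105, 137, 93.2 and 138 in HSC and 99.6, 145, 183 and 172 CPM in MPP (log2 fold change -0.32, SE 0.23, edgeR adjusted p = 0.762).

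The elongation factors were the most abundant of all, and their summed level was close in HSC and MPP. Eef1a1 alone took 1.17% to 1.31% of all counts, at 13133, 11776, 11817 and 13068 in HSC and 11957, 12560.2, 13506 and 11909.6 CPM in MPP. The 2 groups covered nearly the same range, with means of 12448 ± 753 in HSC and 12483 ± 743 CPM in MPP (SD, n = 4) and a log2 fold change of -0.00 (SE 0.10, edgeR adjusted p = 0.996). Summed elongation factors reached 16869 ± 1032 in HSC and 16594 ± 983 CPM in MPP, a ratio of 1.017. Eef2 had 2486, 2285, 1965 and 2378 in HSC and 1770.2, 1949, 2142 and 1887 CPM in MPP, higher in HSC in 3 of 4 genotypes, and the HSC library labelled IFNAR was within the MPP range (log2 fold change 0.23, SE 0.13, edgeR adjusted p = 0.653). Eef1d, an exchange factor subunit, had 190.1, 249.1, 151 and 314 in HSC and 217, 235, 269.7 and 241 CPM in MPP (log2 fold change -0.14, SE 0.23, edgeR adjusted p = 0.931), and Eef1e1, a subunit of the multisynthetase complex, had 23.6, 33.2, 52.9 and 57.7 in HSC and 64.1, 41.6, 83.0 and 28.2 CPM in MPP (log2 fold change -0.36, SE 0.53, edgeR adjusted p = 0.919), both overlapping. The groups of Eef1g and Eef1b2 (log2 fold changes -0.01 and -0.04) also overlapped.

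Per kilobase, the order of the most abundant factors was Eef1a1 with 6939 ± 420.0 CPM per kb in HSC and 6958 ± 414 in MPP, Eif5a with 934 ± 106 CPM per kb in HSC and 1082 ± 100.4 in MPP, and then Eef2 with 738 ± 72.7 CPM per kb in HSC and 627 ± 50.2 in MPP and Eef1g with 679 ± 55.6 CPM per kb in HSC and 683 ± 61.4 in MPP. Eef2 and Eef1g did not differ beyond their spread in either cell type. Eif4a1 had 448 ± 91.7 CPM per kb in HSC and 610.3 ± 50.8 in MPP.

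Enzymes that modify the elongation factors were expressed at low to moderate levels and overlapped between the groups. Eef2k, the kinase that inhibits eEF2 by phosphorylation, had 319, 194, 226 and 182 in HSC and 282, 324, 279.5 and 355 CPM in MPP, and only the HSC library labelled WT lay within the MPP range (log2 fold change -0.46, SE 0.22, edgeR adjusted p = 0.596). Eef2kmt, an eEF2 lysine methyltransferase, had 93.8, 107, 84.3 and 49.9 in HSC and 43.3, 62.4, 46.9 and 67.7 CPM in MPP (log2 fold change 0.58, SE 0.36, edgeR adjusted p = 0.708), with the HSC library labelled DKO low. Eef1akmt4, an eEF1A methyltransferase, had 14.5, 51.3, 6.21 and 30.2 in HSC and 29.0, 33.4, 15.8 and 67.1 CPM in MPP (log2 fold change -0.74, SE 0.62, edgeR adjusted p = 0.814), with both IFNAR libraries lowest in their cell type.

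eIF5A, which helps ribosomes past difficult stretches such as prolines and carries the hypusine modification, was among the most abundant factors. Eif5a had 1387, 1538, 1217 and 1227 in HSC and 1695, 1585, 1586 and 1353 CPM in MPP. HSC was lower in 4 of 4 genotypes, but the MPP library labelled DKO lay within the HSC range (log2 fold change -0.21, SE 0.10, edgeR adjusted p = 0.573). Its rare paralog Eif5a2 had 20.3, 0, 11.96 and 17.5 in HSC and 27.2, 13.0, 14.6 and 14.2 CPM in MPP, with 0 counts in the HSC library labelled N5, which allows up to 0.0979 CPM (log2 fold change -1.14, SE 2.06, edgeR adjusted p = 0.941). Eif6, which keeps the large subunit from joining too early, had 129, 200.2, 199 and 139 in HSC and 166, 125, 206 and 248 CPM in MPP (log2 fold change -0.15, SE 0.28, edgeR adjusted p = 0.946), overlapping. Eif4a3, the helicase of the exon junction complex that shares the eIF4A fold, had 248.6, 302, 210.4 and 242 in HSC and 323, 278, 326 and 301 CPM in MPP (log2 fold change -0.30, SE 0.16, edgeR adjusted p = 0.647); 1 HSC library, N5, lay within the MPP range. The related Eif4a3l1 and Eif4a3l2 were under 2 CPM.

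Genes that regulate or assist these factors were taken from 5 lists, and edgeR called none of their members. Among the 15 list genes named here, DESeq2 gave an adjusted p under 0.05 for 3, and limma-voom for none. The 3 were Trib3 (DESeq2 adjusted p = 0.00203), Rptor (0.0251) and Tsfm (0.0279). DESeq2 called 1880 of all 12132 genes. The 15 were picked for the largest fold changes of their lists, so this count is not a result about the lists. In the mTORC1 branch, which controls eIF4E through its binding proteins, 6 of 14 genes were fitted higher in HSC and 8 lower (median -0.22). Rptor, the mTORC1 substrate adaptor, had 18.8, 26.4, 17.6 and 46.5 in HSC and 72.0, 141, 69.3 and 38.0 CPM in MPP (log2 fold change -1.56, SE 0.59, edgeR adjusted p = 0.480), and Mlst8, a shared mTOR subunit, had 28.4, 43.7, 16.4 and 24.2 in HSC and 78.1, 49.6, 102 and 34.97 CPM in MPP (log2 fold change -1.18, SE 0.57, edgeR adjusted p = 0.590). Both had overlapping groups, with HSC below MPP in 3 of 4 and 4 of 4 genotypes. Mknk1, a kinase of eIF4E, had 78.5, 19.3, 35.3 and 79.2 in HSC and 19.5, 33.9, 6.80 and 47.0 CPM in MPP (log2 fold change 1.12, SE 0.73, edgeR adjusted p = 0.729).

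Of 12 integrated stress response genes tested, 6 were fitted higher and 6 lower (median 0.08). Trib3, a pseudokinase induced by ATF4, had 33.6, 44.5, 42.9 and 42.2 in HSC and 20.7, 5.83, 10.4 and 8.10 CPM in MPP. The HSC libraries lay wholly above the MPP libraries, with means of 40.8 ± 4.90 in HSC and 11.3 ± 6.59 CPM in MPP. Trib3 was called by DESeq2 (adjusted p = 0.00203) but not by edgeR (log2 fold change 2.03, SE 0.72, edgeR adjusted p = 0.444). It was the only gene of this list without overlap, or 8.33% of the 12 tested, against 10.4% of all genes. Eif2ak4, the eIF2 kinase GCN2 that senses uncharged tRNA, had 55.6, 2.54, 25.9 and 35.5 in HSC and 90.3, 67.5, 90.3 and 36.7 CPM in MPP and was lower in HSC in 4 of 4 genotypes with overlap (log2 fold change -1.66, SE 0.92, edgeR adjusted p = 0.660). Sesn2, a stress-induced inhibitor of mTORC1, had 3.94, 11.4, 24.4 and 0.0211 in HSC and 15.3, 19.7, 21.4 and 11.2 CPM in MPP (log2 fold change -1.91, SE 1.85, edgeR adjusted p = 0.852), with the HSC libraries widely spread.

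Among 15 initiation partners and termination and recycling factors, 5 were fitted higher and 10 lower (median -0.25). Pabpc4, a poly(A)-binding protein, had 20.5 ± 9.15 in HSC and 11.7 ± 4.25 CPM in MPP (log2 fold change 0.77, SE 0.84, edgeR adjusted p = 0.883). Paip2b, an inhibitor of poly(A)-binding protein, had 19.0 ± 20.8 in HSC and 7.01 ± 4.66 CPM in MPP (log2 fold change -0.64, SE 2.50, edgeR adjusted p = 0.980); its means and its fitted value have opposite signs, and the fit was 1.22 with limma-voom, 1.31 with the bias-adjusted method and 1.43 without the block. Gspt2, a termination factor, had 15.98 ± 7.76 in HSC and 11.4 ± 8.15 CPM in MPP (log2 fold change 1.04, SE 2.30, edgeR adjusted p = 0.952). Of 9 genes for the hypusine of eIF5A and the diphthamide of eEF2, 6 were fitted higher and 3 lower (median 0.04). Dhps, which begins the hypusine modification, had 22.5 ± 19.3 in HSC and 33.5 ± 12.7 CPM in MPP (log2 fold change -1.11, SE 1.01, edgeR adjusted p = 0.837). The diphthamide genes Dph6 and Dph3 had 37.4 ± 10.7 in HSC and 21.5 ± 13.0 CPM in MPP (log2 fold change 0.97, SE 0.64, edgeR adjusted p = 0.731) and 46.5 ± 26.3 in HSC and 70.8 ± 27.3 CPM in MPP (log2 fold change -0.73, SE 0.55, edgeR adjusted p = 0.777).

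Mitochondria use their own factors, and of 9 tested 3 were fitted higher in HSC and 6 lower (median -0.53). Tsfm, the mitochondrial exchange factor for EF-Tu, had 12.1, 10.8, 34.8 and 34.4 in HSC and 54.2, 36.3, 57.6 and 52.3 CPM in MPP. HSC was lower without overlap (log2 fold change -1.31, SE 0.54, edgeR adjusted p = 0.514). Tsfm was the only gene of this list without overlap, or 11.1% of the 9 tested, against 10.4% of all genes. Mrrf, a ribosome recycling factor, had 28.3 ± 12.8 in HSC and 65.2 ± 21.5 CPM in MPP (log2 fold change -1.30, SE 0.56, edgeR adjusted p = 0.535). Mtif3, an initiation factor, had 22.7 ± 8.37 in HSC and 38.3 ± 8.98 CPM in MPP and was lower in HSC in 4 of 4 genotypes (log2 fold change -0.79, SE 0.59, edgeR adjusted p = 0.774). The lists' medians stand beside the -0.10 of all genes.

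Levels differed more among the HSC libraries than among the MPP libraries. The median coefficient of variation of the 63 factors was 25.0% in HSC and 18.8% in MPP, and it was larger in HSC for 42 of them. Over all genes tested it was 51.0% and 39.5%, so the same direction held across the table. The 4 libraries of a cell type had different genotypes, and the genotype part of this spread cannot be told apart from that between pools.

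Loss of Nfat5 was compared over the 2 libraries labelled N5 and the 2 labelled DKO against the other 4, with cell type and Ifnar1 label in the model. No factor was called (edgeR, smallest adjusted p 1), and no gene of 12132 was (0%). At an unadjusted p under 0.05 there were 4 of 63, against 2.79% of all genes. DESeq2 and limma-voom also called none of the 63, where they called 166 and 0 of all 12132 genes. The count of 4 was 0 without the MPP library labelled DKO and 2 without the HSC library labelled N5 or that labelled IFNAR. The median log2 fold change was -0.02, with 30 of 63 above 0. In 4 of 4 pairs matched on cell type and Ifnar1 label, 7 factors were higher and 5 lower, against 5.79% and 5.35% of all genes.

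Among factors at 10 CPM or more with the same direction in 4 of 4 pairs, the 3 with the largest log2 fold change were Eif2b1, Eif2b3 and Eef1akmt4. Eif3b (3.73) and Eif5a2 (-0.92) also had large fitted values but did not keep 1 direction in 4 of 4 pairs. Eif2b1, the alpha subunit of eIF2B, had 117, 131, 89.7 and 153 in HSC and 59.0, 157, 92.0 and 140.2 CPM in MPP, or 145 ± 11.8 CPM in the 4 libraries labelled N5 or DKO and 89.4 ± 23.8 CPM in the other 4 (log2 fold change 0.72, SE 0.24, edgeR adjusted p = 1, unadjusted p = 0.0231). All 4 libraries labelled N5 or DKO lay above the other 4. Eif2b3, the gamma subunit of eIF2B, had 56.9, 21.0, 39.7 and 30.7 in HSC and 30.7, 27.1, 36.2 and 20.3 CPM in MPP, or 24.7 ± 4.99 CPM in the 4 libraries labelled N5 or DKO and 40.9 ± 11.3 CPM in the other 4 (log2 fold change -0.70, SE 0.46, edgeR adjusted p = 1, unadjusted p = 0.177). Here the 4 lay below the others, although MPP WT was close to HSC DKO. Eef1akmt4, with the values given above, had 45.5 ± 17.1 CPM in the 4 libraries labelled N5 or DKO and 16.4 ± 9.42 CPM in the other 4 (log2 fold change 1.67, SE 0.60, edgeR adjusted p = 1, unadjusted p = 0.0294), again without overlap. The share of all genes that separate these labels was not counted, and the 3 genes were picked for large differences in a common direction. Their lack of overlap is therefore not a result about the factors. Transcripts of Nfat5 itself did not separate these libraries.

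The libraries labelled as lacking Ifnar1 (IFNAR and DKO) were compared with those labelled WT and N5, although transcripts of Ifnar1 itself did not separate them. No factor was called (edgeR, smallest adjusted p 1; 0% of all genes), and 2 of 63 had an unadjusted p under 0.05, against 3.28% of all genes. That count was 1 without the HSC library labelled WT or the MPP library labelled N5, and 4 without the HSC library labelled N5 or the MPP library labelled IFNAR. The median was 0.02, with 33 of 63 above 0. In 4 of 4 pairs 4 factors were higher and 5 lower, where 5.90% and 6.16% of all genes were. DESeq2 called 1 of the 63 factors, Eef1aknmt, and 233 of all 12132 genes. With limma-voom no factor and 1 gene were called.

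Eef1aknmt, which methylates eEF1A at its N terminus and at a lysine, had 98.4, 76.7, 50.4 and 39.6 in HSC and 54.3, 92.8, 36.6 and 32.3 CPM in MPP, or 39.7 ± 7.70 CPM in the 4 libraries labelled IFNAR or DKO and 80.5 ± 19.8 CPM in the other 4 (log2 fold change -1.03, SE 0.31, edgeR adjusted p = 1, unadjusted p = 0.0158). The 4 libraries labelled IFNAR or DKO lay below the other 4, and the DESeq2 adjusted p was 0.0354. Eef1akmt1, another eEF1A methyltransferase, which was chosen after its values were seen, also separated these libraries, in the other direction, with 37.6 ± 4.19 CPM in the 4 libraries labelled IFNAR or DKO and 25.5 ± 1.70 CPM in the other 4 (log2 fold change 0.55, SE 0.44, edgeR adjusted p = 1, unadjusted p = 0.249). Eif4e2 had 164 ± 55.9 CPM in the 4 libraries labelled IFNAR or DKO and 91.7 ± 20.4 CPM in the other 4 (log2 fold change 0.80, SE 0.26, edgeR adjusted p = 1, unadjusted p = 0.0207). The groups overlapped, since the HSC library labelled DKO was below both MPP libraries of the other group. Eif1b had 99.4 ± 36.1 CPM in the 4 libraries labelled IFNAR or DKO and 61.4 ± 8.81 CPM in the other 4 (log2 fold change 0.64, SE 0.29, edgeR adjusted p = 1, unadjusted p = 0.0688), also overlapping; most of its difference lay in HSC, where the libraries labelled IFNAR and DKO had 111 and 145 CPM against 72.3 and 50.9. The share of all genes that separate the Ifnar1 labels was not counted, so the separation by Eef1aknmt and Eef1akmt1 has no background beside it. Whether the genotype effects differ between HSC and MPP was not tested.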

How the data were processed

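The deposited file is a table of raw counts, whole numbers without normalization, covering 53700 genes and 8 libraries. Per the labels' protocols the RNA was extracted with a micro column kit and amplified with Smart-Seq2, in which molecules carry no identifier and strand is lost. Per the submitters' processing notes STAR 2.7.8a and RSEM 1.3.0 were used with GRCm39; how RSEM's estimates became whole numbers is not given in the sources used here. Pseudogenes, overlapping genes and paralogs can share reads.

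Columns were matched to libraries by name. The members and gene lists were chosen with earlier results of these data known. Counts were tested with edgeR 4.0.16 in R 4.3.3 (glmQLFit and glmQLFTest, the installed default legacy method), with TMM, filterByExpr by cell type (12132 genes, 99.5% of counts), and Benjamini-Hochberg adjustment over all genes at 0.05. For HSC against MPP the model held genotype as a block, since genotype pairs the libraries, which left 3 residual degrees of freedom. The models for loss of either gene held cell type and the other gene's label, leaving 4 residual degrees of freedom. Scripts were tested on simulated data. Paralog shares used an exact permutation test over all 70 assignments of 4 and 4 libraries. Named genes were, in each class, the 3 of largest log2 fold change at 10 CPM or more. Those without overlap between HSC and MPP and the paralog pairs were also named, with 3 per pathway list and 3 per genotype contrast. For a genotype contrast the 3 were taken from factors with the same direction in 4 of 4 pairs. Eif2s1, Eif2s3x, Eif3c, Eef1akmt1 and the genes given only by a fitted value were added after their values were seen. Levels per kilobase used GENCODE M21 transcripts (GRCm38), the longest protein-coding one per gene. Promoters came from RefSeq. Alternatives were RLE factors, no TMM, no filter, a 10 CPM filter, DESeq2 1.42.0, limma-voom (limma 3.58.1), the bias-adjusted quasi-likelihood method, fewer terms, leaving out each library and, for shares, log2 ratios and exchange within genotype; counting Eif4a-ps4 with Eif4a1 was chosen after seeing the data. Floors cover counting error only.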

Additional observations from a re-analysis of the deposited data

Results flagged for a closer look

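In 4 of 66 groups of 4 libraries, 1 library stood apart from the other 3 by Dixon's criterion, which compares the gap to the nearest library with the group's range; chance alone marks about 1 group in 20. Eif2b2, an eIF2B subunit, was at 193 CPM in the HSC library labelled DKO and at 90.01 to 98.9 CPM in the other HSC libraries. Eif4e was at 289.6 CPM in the HSC library labelled N5 and at 230.3 to 238 CPM in the other 3. Eif4e2 was at 211 CPM in the HSC library labelled IFNAR and at 73.9 to 92.8 CPM in the other 3. Eif5a2 was at 27.2 CPM in the MPP library labelled WT and at 13.0 to 14.6 CPM in the other MPP libraries.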

How the results depend on the processing

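The number of factors called for HSC against MPP was 0 under edgeR with RLE factors, no TMM, either filter, the bias-adjusted method, no genotype block and each library left out; it was 6 with DESeq2 and 1 with limma-voom. The number of genes called, 2 in the reported fit, was 23 with the 10 CPM filter, 1880 with DESeq2, 156 with limma-voom, 107 with the bias-adjusted method, 207 with no replicate block by genotype, and 0 with any library left out (0 to 0). For Nfat5 loss DESeq2 called 166 genes. For Ifnar1 loss it called 1 factor and 233 genes, while limma-voom and the bias-adjusted method called 1 gene each. The cause of these differences between tools was not tested. Because the fit is paired, leaving out a library removes its partner's information too. Left out in turn, libraries gave 1 to 4 factors with HSC wholly above (2 without HSC WT or HSC N5, 3 without HSC IFNAR or HSC DKO, 4 without MPP IFNAR) and 5 to 9 with HSC wholly below (9 without HSC N5, 7 without MPP DKO); fewer libraries overlap less easily. Fitted log2 fold changes near 0 changed sign: Eif4g3 was 0.0218 with RLE factors, 0.0166 without TMM, 0.0051 with the 10 CPM filter and 0.0216 with DESeq2. Eef1a1 was 0.0256, 0.0186, 0.0075 and 0.0256 under the same settings, 0.0006 with no filter and 0.0007 with limma-voom. Eif4ebp2 was 0.20 with limma-voom, 0.0719 with the bias-adjusted method and 0.11 without the block, where Paip2b was 1.22, 1.31 and 1.43; Eif4enif1 was -0.0476 with limma-voom. With 1 library left out the ranges were -0.52 to 0.52 for Eif4enif1, -0.55 to 0.70 for Eif4g3, -0.81 to 0.0083 for Eef1e1, -0.0527 to 0.0627 for Eef1a1, -2.33 to 0.93 for Paip2b, -0.0955 to 2.25 for Gspt2, -0.39 to 0.26 for Eif4ebp2, -0.31 to 0.0963 for Eef1d and -0.42 to 0.0858 for Eif6. Share differences ranged from -6.90 to 2.20 points for Eif4e2, -4.29 to 4.10 for Eif1ax, -0.29 to 0.19 for Eif5a2, -5.98 to 3.39 for Eif4ebp2 and -2.50 to 7.76 for Eif4g3. Of 54 fitted differences recomputed, 48 of them for HSC against MPP, 45 kept their sign under every setting run. Eif2s1, Eif2s3x, Eif3c and Eef1akmt1 were not among those recomputed, nor were Eif2b1 and Eif2b3 for HSC against MPP.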
